A study of Mus musculus with 27 samples.

Results

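Genes that are normally expressed in germ cells were followed through reprogramming of mouse embryonic fibroblasts (MEFs) to partially reprogrammed pre-iPSCs and then to iPSCs. The 10 genes, Ddx4, Dazl, Mael, Sycp1, Sycp3, Hormad1, Stk31, Slc25a31, Piwil2 and Tdrkh, were taken by their symbols from the 20156 RefSeq genes of the expression data, and all 10 were found. Each cell type was measured by RNA-seq and by MNase ChIP-seq of histone H3, H3K4me3 and H3K27me3 in 2 replicates, and of H3K9me3 in 1 sample. MEFs came from E13.5 embryos that carried 1 copy each of an Oct4-GFP transgene and a Rosa26 allele, on a mixed CBA/CaJ, C57BL/6J and 129Sv/Jae background, and were passaged at most 3 times before RNA-seq. Pre-iPSCs and iPSCs were made from such MEFs by retroviral expression of the 4 Yamanaka factors and cultured in serum with LIF, both on a feeder layer made from MEFs, with 6 passages given for RNA-seq. The study used 2 stable pre-iPSC clones and the iPSCs derived from them, and the clone of a library is not given in the sources used here, so the values describe a small number of clones. MEFs were digested with another amount of MNase and for another time than pre-iPSCs and iPSCs, so digestion and cell type cannot be told apart in comparisons with MEFs.

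Germline genes of this kind are silent in most somatic cells, where methylation of CpG-rich promoters and a noncanonical Polycomb complex that carries MGA, MAX and E2F6 hold them off. MGA and MAX bind the E-box and E2F6 binds a GC-rich hexamer. In the germ line, Ddx4 and Dazl encode RNA-binding proteins of germ granules, Mael, Piwil2 and Tdrkh act in the piRNA pathway that silences transposons, and Sycp1, Sycp3 and Hormad1 build the axis and synapsis of meiotic chromosomes. Stk31 encodes a tudor domain protein of germ cells, and Slc25a31 encodes the ADP/ATP carrier of male germ cells.

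The promoters of the 10 genes were read from the mm9 genome, from 250 bp before to 50 bp after the TSS. An E-box (CACGTG) was present in 7 of 10, against 8.06% of the 20156 promoters of the same length. The E2F6 hexamer (TCCCGC or its reverse complement GCGGGA) was present in 6 of 10, against 27.4%, and both motifs in 6 of 10, against 2.75%. The 2 motifs share no letters at any of these sites. Stk31 held an E-box without the hexamer, and Dazl, Piwil2 and Tdrkh held neither, which says only that these letters are not in this window. The 150 bp upstream of the TSS of 6 genes are shown because they hold the motifs of members that rose together and, for Dazl and Tdrkh, their absence in a member that rose and in the member that did not. Sequences are mm9, written 5′ to 3′ in the direction of the gene, with E-boxes and hexamers in capitals. The hexamer of Sycp1 lies downstream of the TSS and is not part of the stretch shown.
Ddx4 (chr13:113442519-113442668, minus strand): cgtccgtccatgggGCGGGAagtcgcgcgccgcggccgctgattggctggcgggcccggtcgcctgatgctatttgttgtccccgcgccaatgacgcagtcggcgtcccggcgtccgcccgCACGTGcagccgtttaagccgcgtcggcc
Sycp3 (chr10:87922182-87922331, plus strand): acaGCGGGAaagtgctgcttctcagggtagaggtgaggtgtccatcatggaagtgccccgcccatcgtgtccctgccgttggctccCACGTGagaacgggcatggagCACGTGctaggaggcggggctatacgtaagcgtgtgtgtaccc
Hormad1 (chr3:95363449-95363598, plus strand): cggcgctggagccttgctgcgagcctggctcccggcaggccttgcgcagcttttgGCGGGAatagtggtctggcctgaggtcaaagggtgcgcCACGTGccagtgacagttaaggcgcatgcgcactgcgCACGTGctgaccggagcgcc
Sycp1 (chr3:102740024-102740173, minus strand): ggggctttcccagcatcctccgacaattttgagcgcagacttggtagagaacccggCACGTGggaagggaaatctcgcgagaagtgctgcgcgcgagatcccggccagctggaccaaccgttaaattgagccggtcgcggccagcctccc
Dazl (chr17:50432925-50433074, minus strand): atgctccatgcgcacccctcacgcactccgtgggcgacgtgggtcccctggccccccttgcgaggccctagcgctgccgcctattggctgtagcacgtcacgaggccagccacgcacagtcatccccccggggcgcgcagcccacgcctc
Tdrkh (chr3:94217090-94217239, plus strand): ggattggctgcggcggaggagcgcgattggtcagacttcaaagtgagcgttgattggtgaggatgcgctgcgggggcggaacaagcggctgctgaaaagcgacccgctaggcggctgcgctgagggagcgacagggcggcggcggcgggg
Counted with the TSS as 0, the E-box began at -29 bp in Ddx4, -94 bp in Sycp1, -93 bp in Slc25a31, -120 bp in Stk31 and -223 bp in Mael. Sycp3 held a pair of E-boxes at -64 and -43 bp, and Hormad1 at -57 and -20 bp. The hexamer lay at -136 bp in Ddx4, -147 bp in Sycp3, -95 bp in Hormad1, -143 and 11 bp in Mael, 2 bp in Sycp1 and 20 bp in Slc25a31. The observed to expected ratio of CpG within 500 bp of the TSS had a median of 0.726 over the 10 genes and of 0.601 over all promoters, while the median GC content within 1000 bp was 50.9% and 51.8%. Piwil2 was the least CpG-rich of the 10 by this ratio (0.441), and Tdrkh the most (0.781). Neighbours that could share promoter reads were a U11 snRNA that starts 497 bp downstream of the Piwil2 TSS on the same strand and the lincRNA 1700040D17Rik, which starts at -435 bp of Tdrkh on the opposite strand.

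Expression is given as the deposited FPKM of replicates 1 and 2, and differences are on the log2(FPKM + 1) scale, which understates the change of low genes. The deposited files give no read depth for these libraries, so no counting interval is given. Between 10370 and 10995 genes reached 1 FPKM per library, replicates had a Pearson correlation of 0.956 to 0.979 across genes, and none of 15 housekeeping genes was listed at 0 (lowest value, 10.2 FPKM). All of the germline genes but Tdrkh were nearly silent in MEFs and pre-iPSCs and present in iPSCs. These 9 had at most 0.655 FPKM in any MEF or pre-iPSC library and 0.831 to 17.0 FPKM in iPSCs. In these 9 of 10 genes both iPSC libraries lay above all 4 libraries of MEFs and pre-iPSCs, as they did in 12.8% of all 20156 genes. Of the 9 members that passed the filter on low values this held for 8, beside 12.6% of the 12401 genes tested. Since the libraries are of bulk cells, fewer cells that express a gene and less RNA per cell cannot be told apart.

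Among the germ granule genes, Ddx4, the VASA RNA helicase, had 0.0363 and 0.0281 FPKM in MEFs, 0.0585 and 0 in the pre-iPSC libraries and 6.13 and 4.64 in the iPSC libraries (5.38 ± 1.05, SD, n = 2). Dazl, an RNA-binding protein of germ cells, was listed at 0 in all 4 MEF and pre-iPSC libraries and had 5.06 and 6.72 FPKM in iPSCs (5.89 ± 1.18). The iPSC libraries stood clear of the others for both genes. Limma gave a difference of 2.62 ± 0.30 (SE, adjusted p = 0.0034) for Ddx4 and of 2.77 ± 0.30 (adjusted p = 0.0029) for Dazl in iPSCs against pre-iPSCs. The Ddx4 call is lost without iPSC replicate 1 or 2 (adjusted p = 0.051 in both), and that of Dazl without iPSC replicate 2 (adjusted p = 0.052).

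Of the piRNA genes, Mael and Piwil2 rose and Tdrkh did not pass the test. Mael, which is needed for transposon silencing in male germ cells, was the highest of the 10 genes in iPSCs, with 17.0 and 15.6 FPKM (16.3 ± 0.99), against 0 in both pre-iPSC libraries and 0 and 0.0533 in MEFs. Its difference from pre-iPSCs was 4.11 ± 0.32 (limma, adjusted p = 0.0013), the largest of the 9 genes tested. Piwil2, a PIWI protein that binds piRNAs, was listed at 0 in both MEF libraries, had 0.655 and 0.0285 FPKM in pre-iPSCs, and reached 3.04 and 1.99 in iPSCs. The pre-iPSC replicates of Piwil2 lay far apart, and the gene rose by 1.41 ± 0.31 on the log2 scale from pre-iPSCs to iPSCs (limma, adjusted p = 0.033). That call is lost with a pseudocount of 0.1 FPKM (adjusted p = 0.059), without pre-iPSC replicate 2 (adjusted p = 0.19) and without iPSC replicate 1 or 2 (adjusted p = 0.18 and 0.17).

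Tdrkh, a tudor and KH domain protein that tethers PIWI proteins at mitochondria, had the opposite order. It had 3.23 and 2.06 FPKM in MEFs, 1.23 and 1.34 for pre-iPSCs and 1.30 and 1.07 for iPSCs. Both MEF libraries lay above the 4 others, and the pre-iPSC and iPSC values overlapped. Neither the difference of iPSCs from MEFs (-0.72 ± 0.34, limma, adjusted p = 0.16) nor that of pre-iPSCs from MEFs (-0.66 ± 0.34, adjusted p = 0.23) passed the test.

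Of the meiotic chromosome genes, Sycp3, a component of the axial element, had 0.101 and 0.0775 FPKM in MEFs, 0.0813 and 0.145 in the pre-iPSC libraries and 3.10 and 10.2 in the iPSC libraries. Hormad1, a HORMA domain protein of the unsynapsed axis, was listed at 0 in the 4 MEF and pre-iPSC libraries and had 6.58 and 12.5 FPKM in iPSCs. Sycp1, the transverse filament of the synaptonemal complex, was above 0 in every library, with 0.0865 and 0.424 FPKM in MEFs, 0.395 and 0.186 for pre-iPSCs and 2.41 and 2.84 for iPSCs. All 3 rose, with the iPSC libraries of Sycp3 and Hormad1 differing from each other by more than those of Sycp1. From pre-iPSCs to iPSCs the difference was 2.61 ± 0.43 for Sycp3, 3.34 ± 0.35 for Hormad1 and 1.49 ± 0.31 for Sycp1 (limma, adjusted p = 0.012, 0.0026 and 0.028). Without iPSC replicate 1 or 2 the difference of Sycp3 was 3.32 or 1.90. For Sycp1 the call is lost with a pseudocount of 0.1 FPKM (adjusted p = 0.055), without pre-iPSC replicate 2 (adjusted p = 0.18) and without iPSC replicate 1 or 2 (adjusted p = 0.15 and 0.17), and for Sycp3 and Hormad1 without iPSC replicate 2 (adjusted p = 0.082 and 0.050, the latter just above the threshold).

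The lowest of the genes with more transcript in iPSCs were Stk31 and Slc25a31. Stk31 was listed at 0 in all 4 MEF and pre-iPSC libraries and had 1.14 and 2.08 FPKM in iPSCs, a difference of 1.36 ± 0.29 (limma, adjusted p = 0.029 against pre-iPSCs). The call is lost without pre-iPSC replicate 2 (adjusted p = 0.079), and the gene fell under the filter without either iPSC library. Slc25a31 had 0 and 0.113 FPKM in MEFs, 0.0394 and 0.210 in the pre-iPSC libraries and 0.831 and 1.71 in the iPSC libraries, and its mean of 0.484 FPKM over the 6 libraries was under the filter of 0.5. Without that filter its difference was 1.08 ± 0.14 against MEFs, which passed both thresholds (limma, adjusted p = 0.015), and 0.99 ± 0.14 against pre-iPSCs, just under 2-fold (adjusted p = 0.029).

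**Figure D1:**
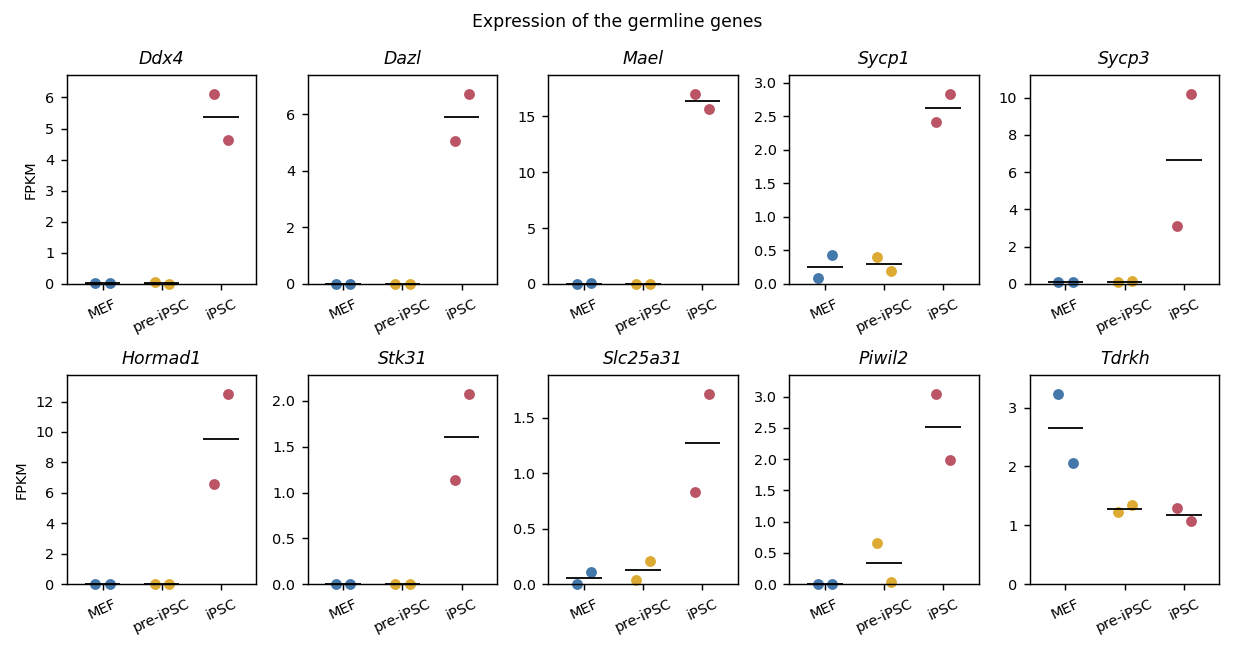
FPKM of each gene (y axis, own scale per panel) in MEFs, pre-iPSCs and iPSCs (x axis). Points are replicates 1 (left) and 2 (right) and the line is their mean. In 9 panels both iPSC points lie above the rest, while Tdrkh is highest in MEFs.

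In the test across all genes (adjusted p below 0.05 and at least 2-fold), 9 of the 10 genes passed the filter. None of the 9 was called between pre-iPSCs and MEFs by limma, beside 16.4% of the 12401 genes tested. At an unadjusted p below 0.05 there was none of the 9 either, beside 3892 of the 12401 genes. In iPSCs against pre-iPSCs 8 of 9 were called higher, beside 3.91% of all genes tested, and in iPSCs against MEFs the same 8, beside 10.3%. Tdrkh was the exception in both. The median difference of the 9 genes was 0.00 between pre-iPSCs and MEFs, 2.61 when iPSCs were set against pre-iPSCs and 2.62 when set against MEFs, and that of all genes tested -0.04, -0.09 and -0.14. Genes without transcript in MEFs and pre-iPSCs pass the filter only through iPSCs, so these counts and medians are descriptions. With no filter, 8 of 10 were called higher in iPSCs against pre-iPSCs (2.48% of 16963 genes) and 9 of 10 against MEFs (5.85%). The comparisons of iPSCs share their libraries and are not independent of each other. Without iPSC replicate 1, 8 members passed the filter, of which 4 were called higher in iPSCs against pre-iPSCs (104 of 12282 genes) and 5 against MEFs (498 genes). Without iPSC replicate 2, 8 again passed, and 1 (Mael) was called against pre-iPSCs (59 of 12328 genes) and 5 against MEFs (512 genes). Without pre-iPSC replicate 2, 10 passed and 5 were called against pre-iPSCs (346 of 12391 genes). Stk31 and Slc25a31 were under the filter in the fits that lack an iPSC library, and the calls of Piwil2 and Sycp1 against MEFs were lost in both of these. Piwil2, Sycp1, Dazl, Ddx4, Hormad1, Mael and Sycp3 kept a positive difference in all 3 fits.

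Other genes of the same pathways were counted in lists that leave out the 10 members. Genes listed at 0 in MEFs and pre-iPSCs pass the filter on low values only through iPSCs, so the counts of those tested are descriptions. Of 15 further piRNA and nuage genes with FPKM values, 8 were tested. Of these, 6 were called higher in iPSCs against pre-iPSCs, beside 3.91% of all genes tested, and 7 relative to MEFs, beside 10.3%, and 1 (Tdrd7) lower relative to MEFs, beside 15.5%. The median difference of the 8 was 2.98 and 2.90. Fkbp6, a chaperone partner of PIWI proteins, had 17.0 and 9.01 FPKM in iPSCs and was listed at 0 in the other 4 libraries, and Tdrd12, Rnf17 and Gpat2 had 6.09 to 9.91 FPKM in iPSCs and at most 0.297 elsewhere. Tdrd7, a tudor domain protein of nuage, resembled Tdrkh: it had 3.58 and 3.71 FPKM in MEFs, 1.11 and 0.648 for pre-iPSCs and 0.568 and 1.04 for iPSCs, and it fell by 1.31 on the log2 scale from MEFs to pre-iPSCs (limma, adjusted p = 0.041), where 9% of all genes tested were called lower. Tdrd7 was named after its values were seen.

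Of 20 further meiotic genes with FPKM values, 15 were tested. Of these, 10 were called higher in iPSCs against pre-iPSCs (3.91% of all genes tested) and 11 relative to MEFs (10.3%), none lower, with a median difference of 2.10 and 2.06. Stra8, the retinoic acid target that starts the meiotic programme, was at 77.1 and 80.7 FPKM in iPSCs, above every member, and at 0 or 0.120 FPKM elsewhere. Rec8, the meiotic cohesin, had 19.9 and 15.3 FPKM in iPSCs, and in pre-iPSCs 0.243 and 4.12. Syce1 and Dmc1, of the central element and of strand exchange, had 6.46 to 11.8 FPKM in iPSCs.

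Of 21 further genes of germ cell specification and RNA binding with FPKM values, 13 were tested, of which 11 were called higher in iPSCs against pre-iPSCs (3.91% of all genes tested) and 12 relative to MEFs (10.3%). Dppa3 (11.3 and 41.2 FPKM) and Sohlh2 (25.7 and 11.0) were found in iPSCs and listed at 0 in the other 4 libraries, and Tex19.1 rose from at most 0.783 FPKM in pre-iPSCs by 4.15 on the log2 scale. Called higher already between MEFs and pre-iPSCs were 2 genes, beside 7.39% of all genes tested. Tcfap2c, the AP-2γ factor that acts early in germ cell specification, went from 0 in both MEF libraries to 11.3 and 5.02 FPKM in pre-iPSCs (3.11 ± 0.53, limma, adjusted p = 0.0088). Elavl2, an RNA-binding protein, went from 0.886 and 0.869 to 9.59 and 9.03 FPKM (2.46 ± 0.41, adjusted p = 0.0083) and had 1.75 and 4.26 in iPSCs. Elavl2 was named after its values were seen.

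In the list of the noncanonical Polycomb complex, 4 of 13 genes were called higher in iPSCs against MEFs (L3mbtl2, Wdr5, Pcgf6 and Rybp), beside 10.3% of all genes tested, and 1 (Yaf2) lower, beside 15.5%. Yaf2 was called lower in pre-iPSCs against MEFs too, and none of the 13 was called in iPSCs against pre-iPSCs by limma, beside 8.62% of all genes tested in either direction, so the count does not stand apart from the background. Rybp was named after its values were seen. Pcgf6, the subunit that defines this complex, had 6.73 and 3.76 FPKM in MEFs, 9.11 and 9.35 in the pre-iPSC libraries and 13.1 and 20.6 in the iPSC libraries. In the list of DNA and H3K9 methylation, 9 of 15 genes were called higher in iPSCs against MEFs, 3 in pre-iPSCs against MEFs and 3 in iPSCs against pre-iPSCs, with none lower. The shares of all genes tested were 10.3%, 7.39% and 3.91%. Dnmt3l, the cofactor of the de novo enzymes, had at most 0.0511 FPKM in MEFs and pre-iPSCs and 83.7 and 67.8 in iPSCs, Dnmt3b had 15.6 and 1.63 in pre-iPSCs against 40.9 and 45.7 in iPSCs, and Dnmt3a 4.09 and 3.69 against 23.3 and 12.4. Zfp57, a zinc finger protein that maintains methylation at imprinted genes, had 21.4 and 10.2 FPKM in MEFs, 79.8 and 87.6 for pre-iPSCs and 64.9 and 64.1 for iPSCs, and was called higher in pre-iPSCs than in MEFs (2.42 ± 0.40, limma, adjusted p = 0.0083). DNA methylation itself was not measured in these libraries.

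Markers of other cell types were summed over each list. The 8 spermatid markers (3 of them at 0 in all 6 libraries) summed to 0.205 to 0.982 FPKM per library in every cell type. Of 8 oocyte markers only Zp3 passed the filter, with 2.83 and 1.75 FPKM in iPSCs and at most 0.192 elsewhere. Zp3, a protein of the egg coat, was called higher in iPSCs against pre-iPSCs (1.65 ± 0.30, limma, adjusted p = 0.019) and relative to MEFs (1.57 ± 0.30, adjusted p = 0.010), and the list summed to 3.17 and 2.05 FPKM in iPSCs. Markers of Sertoli and Leydig cells summed to 3.20 and 4.69 FPKM in MEFs, 11.2 and 33.4 for pre-iPSCs and 24.5 and 17.4 for iPSCs, with Insl3 the highest of them (8.36 to 23.9 FPKM in pre-iPSCs and iPSCs), and their part in the results was not tested. Of 8 pluripotency markers, all 8 were called higher in iPSCs than in MEFs, beside 10.3% of all genes tested, and 5 in pre-iPSCs than in MEFs, beside 7.39%. In iPSCs against pre-iPSCs 5 were called higher, beside 3.91%, and 1 (Tdh, named after its values were seen) lower, beside 4.71%. Dppa5a rose by 7.60 at that step, while Pou5f1 and Sox2, which are among the factors introduced by retrovirus, had differences of -1.18 and -1.30 that did not pass the test (limma, adjusted p = 0.45 and 0.12). The 11 fibroblast markers, such as Col1a1, Col1a2 and Thy1, summed to 5299 and 4857 FPKM in MEFs, 334.3 and 120.7 in the pre-iPSC libraries and 215.5 and 271.6 in the iPSC libraries. Tdrkh too was highest in MEFs. The share of feeder cells in the libraries was not tested.

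Chromatin at the promoters was measured as the reads of nucleosome calls within 1000 bp of the TSS, and levels as RPKM scaled to the unique reads of each library. Reads spread evenly over the genome would give 0.377 RPKM if every unique read were counted. Only reads of calls were counted, 74.4% to 83.3% of the unique reads per library, so the even level on this scale is lower. H3 libraries held 67362868 to 108211816 reads in calls and those of the modifications 12007350 to 15222040, so a promoter of these genes held 33 to 412 reads of H3 but only 3 to 38 of a modification. Counting intervals and limits cover counting error only. Pre-iPSC replicate 1 of H3 stood apart, with 2.61% of its unique reads in promoters against 0.898% to 1.74% in the other 5 H3 libraries. H3K4me3 libraries differed too: 4.91% and 3.89% of unique reads lay in promoters in MEFs, against 3.42% and 3.17% for pre-iPSCs and 3.55% and 3.21% for iPSCs. The part of this in the H3K4me3 results was not tested.

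H3K4me3, the mark of active and poised promoters, was low at the germline genes in every cell type, also in iPSCs where they were expressed. Their median level was 0.203 and 0.430 RPKM in MEFs, 0.536 and 0.325 for pre-iPSCs and 0.636 and 0.526 for iPSCs, beside 1.22 and 0.955, 0.858 and 0.812, and 0.900 and 0.822 over all promoters. The median member ranked at the 9.47th and 26.6th percentile of promoters in MEFs and at the 33.3rd and 27.8th in iPSCs. In no library did more than 1 of the 10 exceed the median promoter, and that 1 was Tdrkh in both cases. By the study's threshold of 1 RPKM, applied here within 500 bp, Tdrkh carried H3K4me3 in both MEF libraries (1.42 and 1.59 RPKM) and in no other, and Dazl and Sycp3 passed it in 1 library each. The window of Tdrkh also holds the start of the lincRNA 1700040D17Rik, at -435 bp, whose reads would be counted with it. Over all promoters, 55.8% and 47.1% carried H3K4me3 alone in the MEF libraries, against 30.4% to 44.3% per library of the other cell types. The share outside MEFs was thus lower over all promoters too. Only reads of calls were counted, so values lie lower against this threshold than with every unique read.

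**Figure D2:**
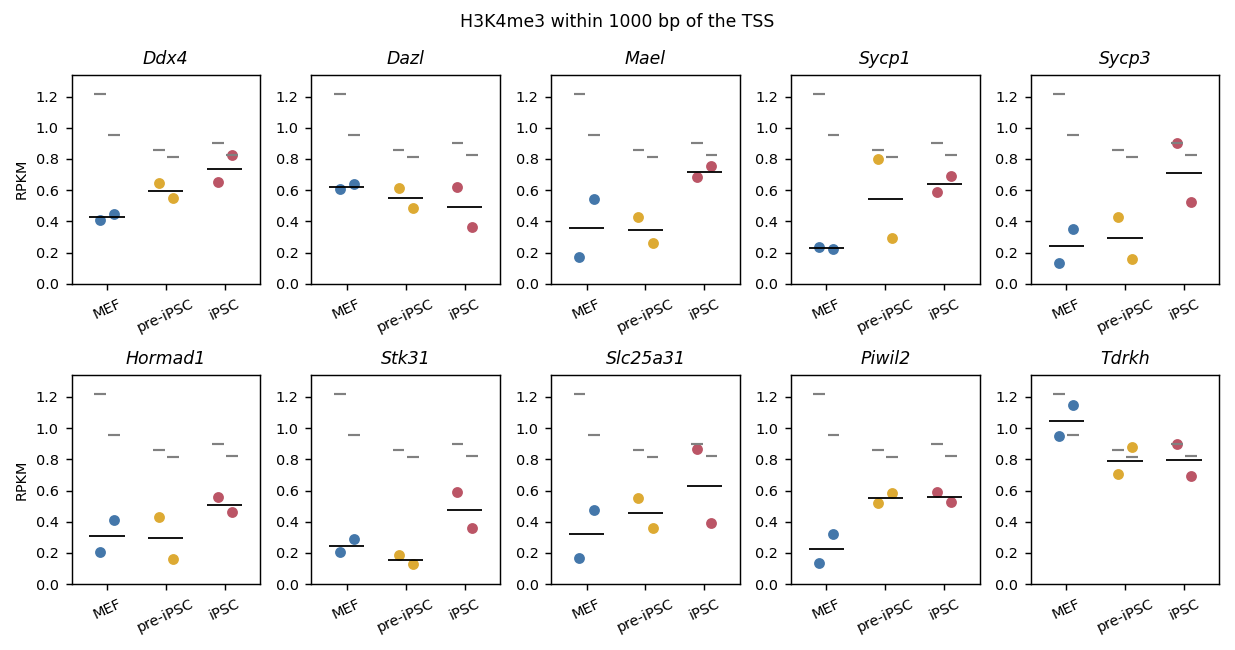
H3K4me3 in RPKM within 1000 bp of the TSS (y axis) of each gene in MEFs, pre-iPSCs and iPSCs (x axis). Points are replicates 1 (left) and 2 (right), black lines their mean and grey marks the median of all promoters in the same library. Most points lie under the grey marks, which are themselves higher in MEFs.

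The mark was nevertheless higher in iPSCs than in MEFs at several of these promoters. In reads normalised by TMM, 5 of 10 promoters were called higher in iPSCs against MEFs, beside 9.74% of the 17700 promoters tested, and none lower, beside 4.01% (edgeR, adjusted p below 0.05). In RPKM, both iPSC libraries lay above both MEF libraries in 7 of 10, beside 15.5% of all promoters. The median difference over the 10 was 1.27 on the log2 scale, and -0.03 over all promoters tested. Sycp3 had 0.135 and 0.350 RPKM in MEFs, 0.429 and 0.162 in the pre-iPSC libraries and 0.900 and 0.526 in the iPSC libraries, so that both iPSC values lay above the rest, and it rose by 1.85 ± 0.47 (SE, edgeR, adjusted p = 0.0065). For Mael the MEF values were 0.169 and 0.541 RPKM, those of pre-iPSCs 0.429 and 0.260, and those of iPSCs 0.683 and 0.757, again without overlap, with a difference from MEFs of 1.32 ± 0.43 (edgeR, adjusted p = 0.036). Ddx4 had 0.406 and 0.446 RPKM in MEFs, 0.644 and 0.552 after partial and 0.652 and 0.822 after full reprogramming, and rose by 1.12 ± 0.39 from MEFs to iPSCs (edgeR, adjusted p = 0.044).

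Sycp1 and Piwil2 were called higher already in pre-iPSCs against MEFs, 2 of 10 promoters beside 3.05% of all promoters tested, although neither gene was called in expression there. Sycp1 had 0.237 and 0.223 RPKM in MEFs, 0.797 and 0.292 for pre-iPSCs and 0.590 and 0.691 for iPSCs. Piwil2 had 0.135 and 0.318 RPKM in MEFs, 0.521 and 0.584 in the pre-iPSC libraries and 0.590 and 0.526 in the iPSC libraries. In both the pre-iPSC libraries lay above the MEF libraries, but those of Sycp1 were far apart. Such a separation in RPKM was seen in 3 of 10 members (with Ddx4), beside 11.3% of all promoters. The reverse was seen in 2 of 10 (Stk31 and Tdrkh), beside 46%. The window of Piwil2 also holds the start of a U11 snRNA, 497 bp downstream, whose reads would be counted with it. Within 500 bp neither gene was called (edgeR, adjusted p = 0.18 for Sycp1 and 0.24 for Piwil2). The difference of pre-iPSCs from MEFs was 1.61 ± 0.48 for Sycp1 (edgeR, adjusted p = 0.046) and 1.62 ± 0.48 for Piwil2 (adjusted p = 0.041), and that of iPSCs from MEFs 1.80 ± 0.47 (adjusted p = 0.0086) and 1.6 ± 0.48 (adjusted p = 0.020).

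Hormad1, Stk31 and Slc25a31, which did not pass the test, had differences of 1.04, 1.28 and 1.27 from MEFs to iPSCs (edgeR, adjusted p = 0.13, 0.064 and 0.054). Dazl, which went from no transcript to 5.89 FPKM, had 0.610 and 0.637 RPKM of H3K4me3 in MEFs, 0.613 and 0.487 for pre-iPSCs and 0.621 and 0.362 for iPSCs, a difference of 0.00 ± 0.37 from MEFs to iPSCs (edgeR, adjusted p = 0.999). Tdrkh, with 0.948 and 1.15 RPKM in MEFs, 0.705 and 0.877 in the pre-iPSC libraries and 0.900 and 0.691 in the iPSC libraries, had the highest level of the 10 in both MEF libraries and differed by -0.06 ± 0.31 after TMM (edgeR, adjusted p = 0.92). Between pre-iPSCs and iPSCs, where expression rose, none of the 10 was called, beside 0% of the 17700 promoters tested by edgeR, and DESeq2 called no promoter either. In edgeR 3 of the 10 members had an unadjusted p below 0.05 (Stk31, Sycp3 and Mael, with differences of 1.54, 1.21 and 1.01), as did 1581 of the 17700 promoters. In RPKM, both iPSC libraries lay above both pre-iPSC libraries in 5 of 10 members, beside 20.8% of all promoters. They lay below in 0 of 10, beside 15.6%.

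These H3K4me3 calls rest on few reads and depend on the settings. Without MEF replicate 1 and without MEF replicate 2, the difference of iPSCs from MEFs was 0.59 and 2.54 for Mael, 1.2 and 2.84 for Sycp3, and 0.98 and 2.48 for Piwil2. That of pre-iPSCs from MEFs was 1.00 and 2.51 for Piwil2, and for Sycp1 0.76 without pre-iPSC replicate 1 and 2.10 without replicate 2. In pre-iPSCs against MEFs no member was called without pre-iPSC replicate 1, Sycp1 alone without pre-iPSC replicate 2 and Piwil2 alone without MEF replicate 2. Without MEF replicate 1, which had 4 to 28 reads per promoter, no member was called in either comparison with MEFs. Without that library 477 of 18321 promoters were called higher in iPSCs against MEFs, and 85 in pre-iPSCs. Without iPSC replicate 1, 1 member was called higher there (777 of 18296 promoters), and without iPSC replicate 2, 2 (1155 of 18307). DESeq2 called no member in any comparison, and 115 promoters higher and 4 lower of 19845 for iPSCs against MEFs. Scaled to unique reads in place of TMM, which moves the median of all promoters by -0.34 for iPSCs against MEFs and by -0.38 for pre-iPSCs against MEFs, 3 and 0 members were called, and the calls over all promoters turned from 1724 higher and 709 lower to 841 and 2356, and from 540 and 141 to 232 and 1121.

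**Figure D3:**
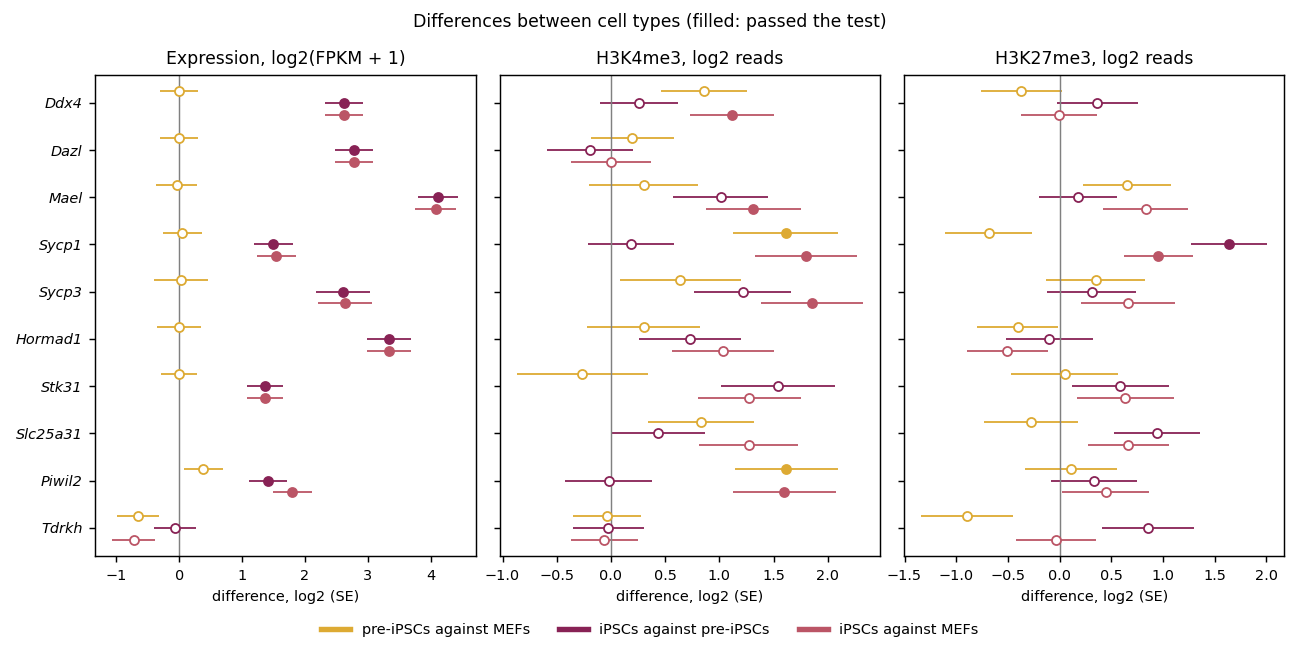
Difference between cell types on the log2 scale (x axis) for each gene (y axis), for expression, H3K4me3 and H3K27me3, with bars of 1 SE. Filled points passed the test. Expression points of iPSCs lie far right of 0 for all tested genes but Tdrkh, while H3K4me3 points spread from -0.26 to 1.85 with wide bars.

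H3K27me3, the Polycomb mark, was above the level of the median promoter at most of the genes. The median over the 10 was 0.242 and 0.397 RPKM in MEFs, 0.309 and 0.306 for pre-iPSCs and 0.461 and 0.492 for iPSCs, beside 0.182 to 0.259 over all promoters. Between 7 and 10 members exceeded the median promoter in each library. The same range of 7 to 10 members held for H3 itself, so this rank is not particular to H3K27me3. By the threshold of 1 RPKM within 500 bp, no member carried the mark in any library but Sycp1 in iPSC replicate 2 (1.01 RPKM), and none was bivalent in any library. Over all promoters 0.908% to 2.56% per library carried H3K27me3 alone and 0.437% to 0.903% were bivalent. These counts therefore do not stand apart from the background.

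Sycp1 was the only member called. It had 0.454 and 0.530 RPKM of H3K27me3 in MEFs, 0.422 and 0.183 in the pre-iPSC libraries and 0.864 and 1.13 in the iPSC libraries, where it ranked at the 96.3rd and 99.7th percentile of all promoters. The iPSC libraries lay above the 4 others. H3K27me3 at Sycp1 rose by 1.64 ± 0.37 from pre-iPSCs to iPSCs (edgeR, adjusted p = 0.014), the same step in which its transcript rose. This made 1 of 9 members tested, beside 0.663% of 10407 promoters. Against MEFs the difference was 0.95 ± 0.33 (edgeR, adjusted p = 0.048), 1 of 9 beside 7.33%, and that call did not hold with DESeq2 size factors (adjusted p = 0.051) with replicate as a block (adjusted p = 0.064) or with any 1 library left out (adjusted p = 0.065 to 0.34). With 1 library left out the difference of iPSCs from pre-iPSCs was 1.16 to 2.36, the highest without pre-iPSC replicate 1. The call against pre-iPSCs was lost without pre-iPSC replicate 2, without iPSC replicate 2, within 500 bp and with DESeq2.

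At the other genes the mark was 0.0909 to 0.691 RPKM. Between pre-iPSCs and MEFs no member was called, beside 8.1% of promoters in either direction, and 1 of 9 (Tdrkh, difference -0.90) had an unadjusted p below 0.05, as did 2212 of 10407 promoters, while DESeq2 called no member. Slc25a31 had 0.253 and 0.306 RPKM in pre-iPSCs against 0.518 and 0.597 in iPSCs, with no overlap but an adjusted p of 0.33 (edgeR). Such a separation of iPSCs above pre-iPSCs was seen in 5 of 10 members and 22.6% of all promoters. Dazl, with 3 to 13 reads per library, was under the filter and was not tested. The median difference over the 9 genes was 0.36 for iPSCs against pre-iPSCs and 0.64 relative to MEFs, and 0.00 in both over all promoters tested.

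H3K9me3, a mark of heterochromatin, was measured once per cell type, so the values have no replicate check and no test. The median over the 10 promoters was 0.328 RPKM in MEFs, 0.405 for pre-iPSCs and 0.513 for iPSCs, beside 0.197, 0.218 and 0.265 over all promoters. The median member thus ranked at the 69.6th, 81.4th and 87.6th percentile. For H3 itself the median member ranked at the 66.1st to the 87.4th percentile, depending on the library. Ddx4 and Sycp1 had the highest levels in iPSCs. Ddx4 had 0.525 RPKM in MEFs (95% exact Poisson interval, 0.300 to 0.852), 0.530 in pre-iPSCs (0.309 to 0.849) and 0.761 in iPSCs (0.482 to 1.14). Sycp1 had 0.590 (0.350 to 0.933), 0.405 (0.216 to 0.693) and 0.794 RPKM (0.509 to 1.18). Dazl was highest in pre-iPSCs, with 0.748 RPKM (0.480 to 1.11) against 0.295 in MEFs (0.135 to 0.560) and 0.298 in iPSCs (0.136 to 0.565). Stk31, the lowest, had 0.164 to 0.219 RPKM. The intervals overlapped in all 30 pairs of cell types, which is not a test and does not show equal levels. Dazl held 24 reads in pre-iPSCs, 9 in MEFs and 9 in iPSCs.

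**Figure D4:**
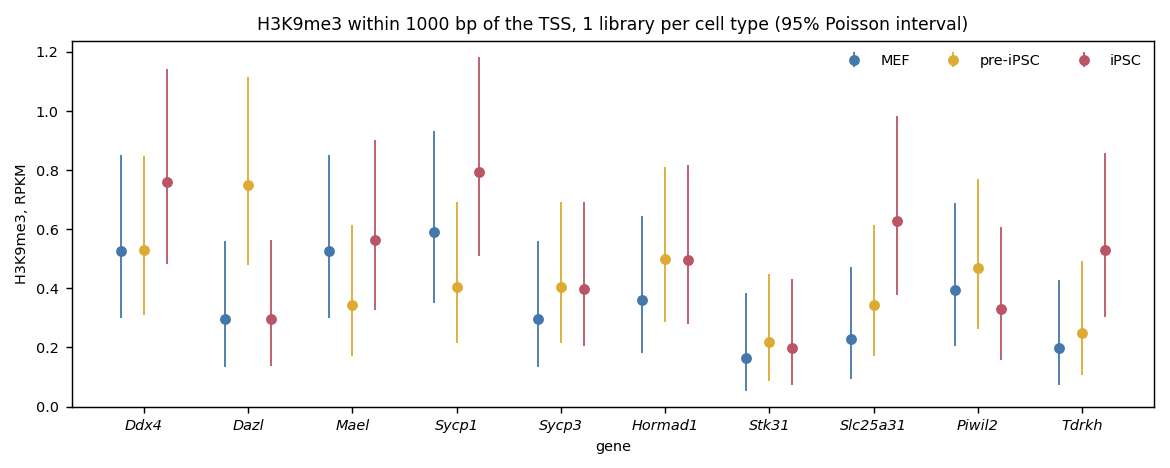
H3K9me3 in RPKM within 1000 bp of the TSS (y axis) for each gene (x axis) in MEFs, pre-iPSCs and iPSCs, 1 library each. Bars are 95% exact Poisson intervals of the read count, and within each gene they overlap, which does not show equal levels.

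H3 at these promoters differed more between replicates of pre-iPSCs than between the other libraries. Over the 10 genes the median was 0.285 and 0.318 RPKM in MEFs, 1.22 and 0.309 in the pre-iPSC libraries and 0.520 and 0.287 in the iPSC libraries. Over all promoters it was 0.218 and 0.207, 0.550 and 0.204, and 0.408 and 0.238. Replicate 1 of pre-iPSCs and of iPSCs was thus higher over all promoters too, so the direction of the gap is not particular to these genes. In pre-iPSCs the gap was wider at the 10 genes (1.22 and 0.309 RPKM) than over all promoters (0.550 and 0.204). In pre-iPSC replicate 1 the genes held 0.774 to 1.59 RPKM and in replicate 2 of the same cell type 0.254 to 0.436. Sycp3 gave the widest gap, with 1.59 against 0.309 RPKM, and Ddx4 one of 0.954 against 0.381. In 8 of the 10 genes iPSC replicate 1 lay above replicate 2 as well, the exceptions being Ddx4 (0.392 and 0.400) and Hormad1 (0.400 and 0.406).

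Around the TSS, a depleted region was not shared by the libraries. In reads per base from -150 to 50 bp relative to the rest of the upstream 1000 bp, the 10 genes together had 0.705 and 1.21 in MEFs, 3.43 and 0.862 for pre-iPSCs and 2.16 and 0.738 for iPSCs, beside 0.658 and 0.716, 1.15 and 0.647, and 0.877 and 0.665 over all promoters. In the 200 bp before the TSS, H3 reached 2.88 RPKM in pre-iPSC replicate 1 and 0.359 in replicate 2, and 0.844 and 0.260 in iPSCs. In pre-iPSCs and iPSCs alike, replicate 1 was the higher one.

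**Figure D5:**
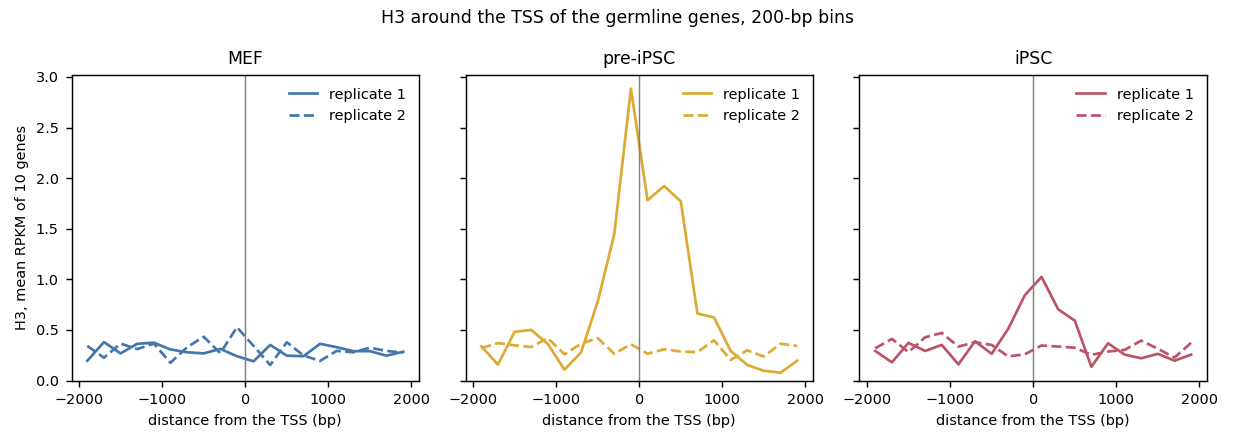
Mean H3 level of the 10 genes in RPKM (y axis) in 200-bp bins by distance from the TSS (x axis), by cell type. Replicate 1 of pre-iPSCs peaks at 2.88 RPKM and replicate 1 of iPSCs at 1.02 RPKM at the TSS, while the replicates 2 and MEFs stay between 0.153 and 0.527 RPKM in bins within 600 bp.

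By edgeR none of the 10 promoters was called for H3 in any comparison, beside 0% of 19560 promoters, and DESeq2 called none. The difference was positive in all 10 for pre-iPSCs against MEFs (median 0.37, beside 0.04 over all promoters tested). It was negative in all 10 for iPSCs against pre-iPSCs (median -0.47, beside 0.03). Relative to MEFs it was positive in 4 of 10 in iPSCs (median -0.06, beside 0.05). The part of pre-iPSC replicate 1, which stood apart, in these differences was not tested. Changes of 4-fold planted in the iPSCs of simulated H3 libraries with the same spread were not called either. Only iPSCs against MEFs was simulated. The lack of calls therefore does not show equal levels. At an unadjusted p below 0.05 there was 1 member, Sycp1 in pre-iPSCs against MEFs (difference 0.97 ± 0.38), beside 373 of 19560 promoters, and none in iPSCs against pre-iPSCs (105 promoters) or relative to MEFs (296). Without pre-iPSC replicate 2, which leaves only the library that stood apart for pre-iPSCs, Sycp1 was called there (1.19 ± 0.39, edgeR, adjusted p = 0.032), as were 1172 promoters higher and 3417 lower of 19598. In that fit pre-iPSCs are a single library, which, as in every fit that leaves out 1 library, is assumed to vary like those of the other cell types. At the amplicon that the study used for ChIP-qPCR of Ddx4 (mm9 chr13:113442450-113442548, 99 bp from -30 to 68 bp, which includes the E-box), nucleosome calls at it held 2 and 2 H3 reads in MEFs, 47 and 4 in the pre-iPSC libraries and 23 and 10 in the iPSC libraries. The same stretch held at most 4 reads of any modification in any library.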

How the data were processed

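Samples were MEFs, pre-iPSCs and iPSCs, grouped by their labels, with titles marked as repeats taken as replicate 2. The ChIP-seq reads were mapped by the authors (Bowtie 1.0.1, mm9, unique reads, at most 2 mismatches), moved 73 bp towards the dyad and passed to GeneTrack for nucleosome calling. In the deposited files each call has its read count and a fuzziness score, the SD of read positions. For RNA-seq the authors used TopHat2 2.0.4 and Cufflinks 2.0.2, and deposited FPKM in 2 tables, normalised separately, each with 1 library of every cell type.

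From these, reads of calls were counted by their centre within 1000 bp of the TSS of 20156 genes and tested by the quasi-likelihood method of edgeR 4.0.16 after filterByExpr and TMM. RPKM used the unique reads of each library as listed by the study. Log2(FPKM + 1) of genes whose mean reached 0.5 FPKM was tested with limma 3.58.1 (trend), with the table as a term. P-values were adjusted by Benjamini-Hochberg over all genes or promoters at 0.05, with at least 2-fold for expression. The study calls the 2 replicates biological, without saying in the sources used here whether they were separate cultures or clones, and p-values measure the spread between them. An exact permutation test of 2 against 2 cannot go below 0.33. Settings varied were the pseudocount, filters, scaling, tool (DESeq2 1.42.0), window, minimum call, block and left-out libraries. On simulated data, changes were planted in iPSCs and scored in iPSCs against MEFs only. The tests of H3K4me3 and H3K27me3 called most of them, that of expression fewer than it missed, and that of H3 none. R 4.3.3, Python, numpy, pandas, scipy and matplotlib were used.

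The members and gene lists were chosen with earlier results of these data known. All 10 members are described. Of each further list, the called genes with the largest changes were named, at most 4, and of each marker list at most 3 genes with the highest mean FPKM. The fuzziness was not used in a test. The ChIP-qPCR was not analysed here.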

Additional observations from a re-analysis of the deposited data

How the results depend on the processing

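In expression, neither the pseudocount, the filters, quantile scaling nor the fit without the replicate block moved the count of members called by over 1.5 times. Leaving out 1 library gave 1 to 8 members for iPSCs against pre-iPSCs, 5 to 9 for iPSCs against MEFs and 0 for pre-iPSCs against MEFs, and Tdrkh turned to 0.12 between pre-iPSCs and iPSCs without pre-iPSC replicate 2 (range -0.26 to 0.12). For H3K4me3 in pre-iPSCs against MEFs, unique-read scaling, DESeq2, the 500 bp window and calls of at least 2 reads left 0 of 2 members, and leaving out 1 library 0 to 2. For iPSCs against MEFs, unique-read scaling and calls of at least 2 reads left 3 of 5, DESeq2 0, and leaving out 1 library gave 0 to 7. For H3K27me3 in iPSCs against pre-iPSCs, DESeq2 and the 500 bp window left 0 of 1, and leaving out 1 library 0 to 1. In iPSCs against MEFs, DESeq2 size factors, DESeq2, no filter, the 500 bp window, calls of at least 2 reads, the replicate block and each left-out library left 0 of 1. H3 kept 0 members, or 1 without pre-iPSC replicate 2 in pre-iPSCs against MEFs (0 to 1). DESeq2 called 31 promoters for H3K4me3 in pre-iPSCs against MEFs where edgeR called 681, and for H3K27me3 35 higher and 19 lower where edgeR called 843, 0 for iPSCs against pre-iPSCs where edgeR called 83, and 19 higher and 25 lower for iPSCs against MEFs where edgeR called 1167. Unique-read scaling moved the median of all promoters for H3 by 0.88, -0.29 and 0.55. RNA replicates of the same number share a deposited table, which is a term of the test, and for ChIP the sources used here tie a number to nothing shared. The correlation of same-numbered deviations between cell types was -0.20 to 0.35 in expression, -0.03 to 0.79 in H3, -0.05 to 0.11 in H3K4me3 and -0.04 to 0.03 in H3K27me3. The value of 0.79 was that of H3 between pre-iPSCs and iPSCs, whose same-numbered libraries thus deviated together. The main H3 test has no term for this. The other ChIP pairs lay between -0.05 and 0.11. The replicate block called 2, 0 and 5 members for H3K4me3 and 0 for H3. The cause of these changes was not tested. The promoter comparisons rest on 3 to 38 reads per promoter and modification, and the part of depth in them was not tested.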
